A study of Rattus norvegicus with 6 samples.

Results

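The set described here is 37 genes of the cell cycle and DNA replication, measured in the renal cortex of rats given benzyl acetate or its vehicle. The genes were taken by symbol in 4 groups by role. They were 11 S phase genes, 17 mitosis genes, 6 G1 cyclins and kinases and 3 inhibitors of cyclin-dependent kinases (CDKs). A probe was matched to 34 of the 37. None was matched to Mcm5, Top2a or Bub1b. Aurkb, the mitotic kinase Aurora B, had a probe that was not well above background on all arrays of either group, so 33 members were tested among 31179 genes, of which 12276 had a symbol. The filter on dim probes therefore removed 1 matched member, and every count of levels or differences given below is over members that passed it.

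The animals were male Sprague-Dawley (Crl:CD(SD)) rats bought at 5 weeks of age. The 3 vehicle animals received corn oil, and the 3 treated animals received benzyl acetate at 1000 mg/kg/day, each for 4 weeks. Benzyl acetate is an ester used as a fragrance and flavouring. RNA of the whole cortex, a mixture of tubule, glomerular, vascular and immune cells, was hybridised to 1-colour Agilent arrays, 1 array an animal, at this single dose and time. The animals are numbered below by the replicate number in their labels, and nothing in the labels links an animal of one group to an animal of the other.

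Cells that divide copy their DNA in S phase and separate the copies in mitosis. The genes for the replication machinery are switched on by E2F factors as cells leave G1, and the genes for mitosis are switched on later through a different promoter arrangement, in which B-Myb, FoxM1 and NF-Y take part. In the adult kidney most tubule cells are quiescent, and the CDK inhibitors restrain entry into the cycle, so transcripts of S phase and mitosis serve as a readout of the dividing minority.

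Each value is a log2 level: the processed signal of a probe relative to the 75th percentile of all probes on the same array, so that a difference of 1 is a 2-fold change. Levels of different genes come from different probes and are not set against each other. The 75th percentile lay between 883 and 1057 signal units over the 6 arrays, from 69.0% to 72.0% of probes were well above background, and no spot was saturated. All 7 proximal tubule markers looked up were tested, among them Miox, a renal cortex oxygenase, at 9.17 to 9.42. Umod of the thick ascending limb (7.54 to 8.47) and Podxl of the podocyte (4.10 to 4.64) were also measured on all 6 arrays. The array of vehicle animal 1 came from a different slide from the other 5.

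None of the 33 tested members passed the test of benzyl acetate against vehicle. No member had an adjusted p under 0.05 in the limma fit with Benjamini-Hochberg adjustment over all genes, and neither did any other gene (0 of 31179, 0.0%). At an unadjusted p under 0.05 the count was 0 of 33 members, where 6.74% of all genes were below that value (3.82% higher and 2.92% lower in treated animals). Adjusted p-values of members ran from 0.766 (Mcm7) to 0.997 (Cdk1, Kif20a and Aurka). The treated mean was above the vehicle mean for 13 members and below it for 20, or 60.6%, against 46.0% of all genes below. The median difference was -0.05 over the members and 0.01 over all genes. In 2 of the 33 members the 3 treated values lay wholly outside the 3 vehicle values, Mcm7 above and Tyms below, which is 6.06% against 12.8% of all genes (7.51% above and 5.31% below).

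The 95% intervals give the sizes that these 3 animals against 3 leave possible. All 33 intervals lay within a 2-fold change in either direction, and 21 of the 33 lay within a 1.5-fold change, against 28515 and 23019 of 31165 genes with a value on all 6 arrays. The lowest bound was -0.85, for Ccnb2, and the highest 0.71, for Birc5.

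**Figure D1:**
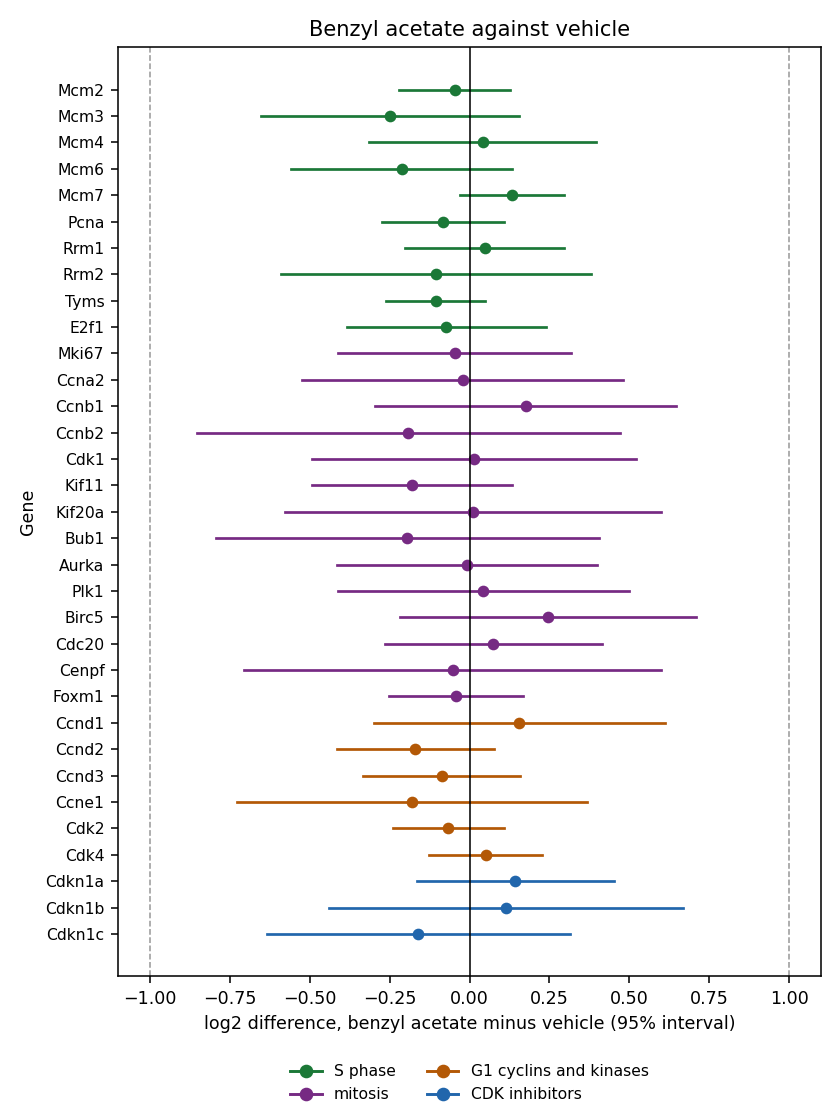
Difference between benzyl acetate and vehicle for each tested member (log2, horizontal axis), with 95% intervals from limma and members coloured by role, n = 3 animals a group. Dashed lines mark a 2-fold change. Every interval crosses 0, and all lie between -0.85 and 0.71.

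In S phase, 7 of 10 tested members were lower and 3 higher in treated animals, with a median of -0.08 and none past the test. The MCM proteins form the helicase that opens DNA at replication origins. Mcm2 was at -0.66, -0.59 and -0.65 in vehicle animals 1 to 3 and at -0.60, -0.76 and -0.67 in treated animals 1 to 3. Mcm3, the helicase subunit with the largest difference of this role, was at -0.45, -0.30 and -0.36 in the vehicle animals and at -0.38, -0.98 and -0.50 in the treated. On this probe only treated animal 2 stood away from the rest, and treated animal 1 lay inside the vehicle range. Its means were -0.37 ± 0.07 and -0.62 ± 0.32 (SD, n = 3 each), a difference of -0.25 with a 95% interval from -0.65 to 0.15 (limma adjusted p = 0.817). Another Mcm3 probe was at -2.48, -2.34 and -2.47 and at -2.66, -3.12 and -2.66. A further one was at -2.21, -2.15 and -2.02 and at -2.35, -2.88 and -2.40. On both, every treated value was below every vehicle value, with differences of -0.38 and -0.41 and r = 0.94 with the used probe. The groups overlapped on the remaining, dimmer probe, with a difference of -0.25.

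Mcm6 was at -3.46, -3.08 and -3.35 in the vehicle animals and at -3.63, -3.61 and -3.29 in the treated, a difference of -0.21 (interval -0.56 to 0.13). The groups overlapped through treated animal 3, which was above vehicle animals 1 and 3. Mcm7 was at 1.42, 1.44 and 1.47 and at 1.64, 1.51 and 1.6, so every treated value was above every vehicle value. That difference was 0.13 (interval -0.03 to 0.30, limma adjusted p = 0.766), and the other detected probe of Mcm7 had the opposite sign. Mcm4 differed by 0.04.

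The other S phase members supply nucleotides, clamp the polymerase or drive transcription. Pcna, the sliding clamp of DNA polymerase, was at 1.58, 1.77 and 1.73 in the vehicle animals and at 1.66, 1.61 and 1.57 in the treated, a difference of -0.08 (interval -0.27 to 0.11). Its vehicle animal 1 lay inside the treated range. Rrm2, the regulated subunit of ribonucleotide reductase, was at 1.09, 1.22 and 1.30 and at 1.5, 0.73 and 1.08. For Rrm2 the treated animals held both the highest and the lowest value, with a mean difference of -0.11 (interval -0.59 to 0.38). Tyms, which makes thymidylate, was at -0.39, -0.36 and -0.38 and at -0.42, -0.53 and -0.49. All 3 treated values of Tyms were below the vehicle values, by -0.11 on average (interval -0.26 to 0.05, limma adjusted p = 0.794). Rrm1, the large subunit of ribonucleotide reductase, differed by 0.05 and E2f1, an activating E2F factor, by -0.07.

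In mitosis, 6 of 14 tested members were higher and 8 lower in treated animals, with a median of -0.02, no member past the test and no member whose groups were apart. Cdk1, the kinase that drives entry into mitosis, was at 0.51, 0.69 and 0.69 in vehicle animals 1 to 3 and at 1.02, 0.21 and 0.70 in treated animals 1 to 3. Its group means were 0.63 ± 0.11 and 0.64 ± 0.41 (SD, n = 3 each), a difference of 0.01 (interval -0.49 to 0.52, limma adjusted p = 0.997). Treated animal 1 was above every vehicle animal and treated animal 2 below every vehicle animal. Treated animal 3, at 0.7015, stood just above the highest vehicle animal, at 0.6947.

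The same order of animals recurred through the mitosis members. Ccnb1, the cyclin B1 partner of Cdk1, was at -2.73, -2.61 and -2.73 in the vehicle animals and at -2.21, -2.94 and -2.38 in the treated, with a mean difference of 0.18 (interval -0.30 to 0.65). Mki67, the proliferation antigen Ki-67, was at 0.01, 0.06 and 0.16 and at 0.25, -0.28 and 0.13, with a mean difference of -0.05 (interval -0.41 to 0.32). Both had treated animal 1 on top and treated animal 2 at the bottom. Bub1, a kinase of the spindle checkpoint, was at -1.95, -2.01 and -1.90 in the vehicle animals and at -1.84, -2.73 and -1.88 in the treated, a difference of -0.19 (interval -0.79 to 0.40). Birc5, survivin of the chromosomal passenger complex, was at -1.16, -0.82 and -1.34 and at -0.58, -1.12 and -0.89, a difference of 0.24 (interval -0.22 to 0.71). Bub1 followed the same order, and for Birc5 treated animal 1 was again highest, but the lowest value was that of vehicle animal 3.

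Over the 14 tested mitosis members, 12 were highest on treated animal 1 and 12 were lowest on treated animal 2, against 13.8% and 17.9% of all genes. In 12 of 14 the value of treated animal 1 was above all 3 vehicle animals and that of treated animal 2 below all 3, against 4.28% of all genes. The exceptions were Kif11 and Birc5. This pattern was singled out after the values were seen, so these counts describe the 6 arrays and carry no test. Averaged over the mitosis members, the deviation from the 6-array mean was -0.03, 0.03 and 0.02 in the vehicle animals and 0.28, -0.35 and 0.05 in the treated. Fewer dividing cells and less of these transcripts per dividing cell cannot be told apart in RNA of a whole tissue.

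**Figure D2:**
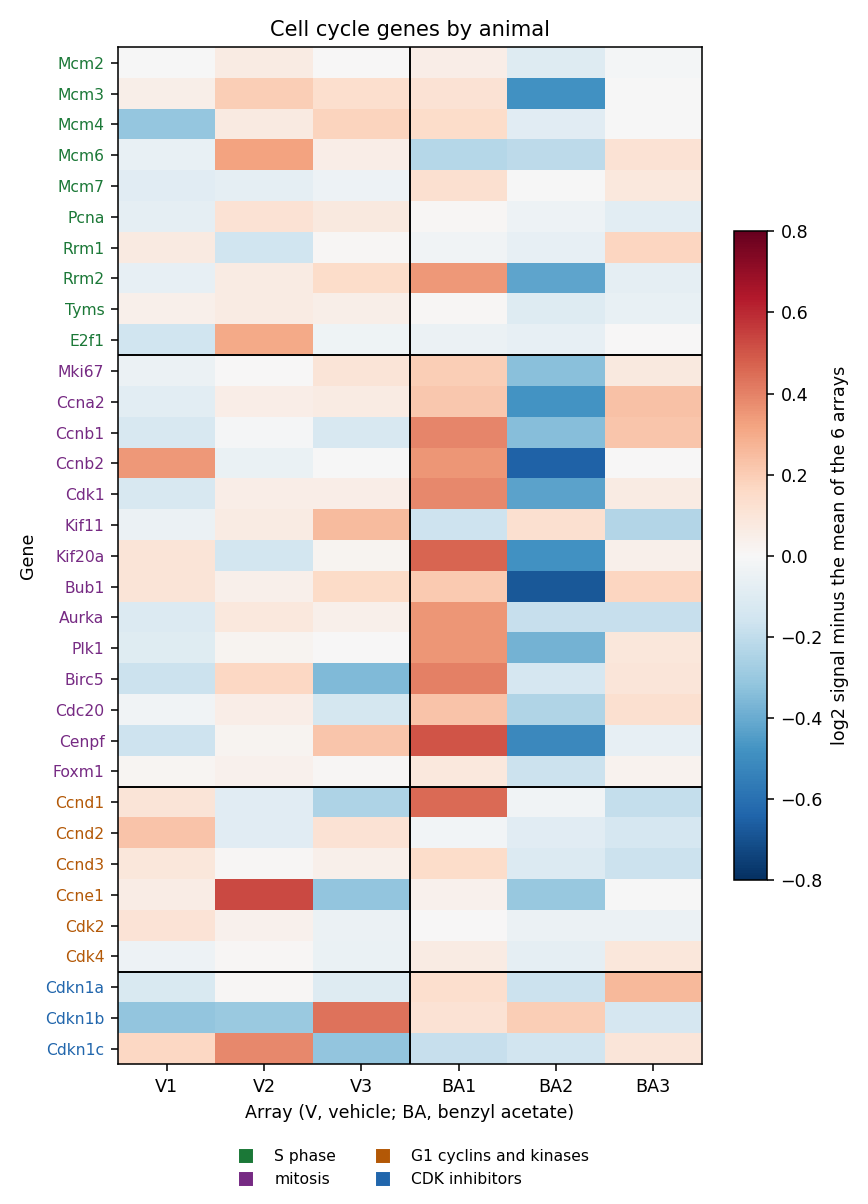
Deviation of each tested member from its 6-array mean (log2, colour scale), by gene (rows, grouped by role) and animal (columns). Most mitosis rows are high in treated animal 1 and low in treated animal 2, with averages of 0.28 and -0.35.

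The ratio of treated animal 1 to treated animal 2 had a median of 1.64 over the mitosis members. The highest ratios were 2.03 for Cenpf, a kinetochore protein, 2.01 for cyclin B2 (Ccnb2) and 1.93 for Kif20a, a kinesin of cytokinesis. The Cenpf probe was dim, with a vehicle mean of -4.47. Bub1 stood at 1.84, Cdk1 at 1.75, and Plk1, the polo-like kinase of mitotic entry, at 1.66. Ccna2 (cyclin A2) was at 1.62, Aurka (Aurora A of the spindle poles) at 1.46, Cdc20 (an activator of the anaphase-promoting complex) at 1.39 and Foxm1 at 1.19. Kif11, the kinesin that pushes spindle poles apart, was the exception at 0.822. It was at 1.97, 2.08 and 2.27 in the vehicle animals and at 1.85, 2.14 and 1.78 in the treated, a difference of -0.18 (interval -0.49 to 0.13).

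The spread within the treated group was larger than within the vehicle group in 14 of 14 mitosis members, against 50% of all genes. The median SD was 0.38 in treated and 0.10 in vehicle animals, where all genes had 0.12 in both. In S phase the treated SD was larger for 6 of 10 members, with medians of 0.10 in each group. With 3 animals a group the difference in spread was not tested.

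**Figure D3:**
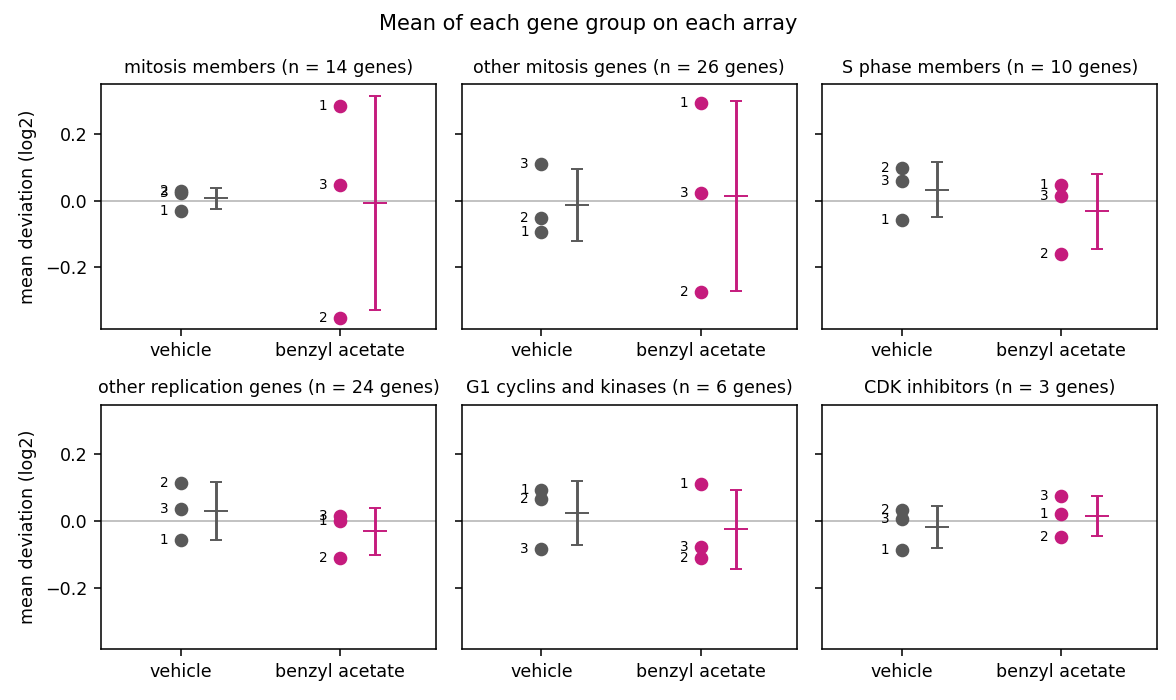
Mean deviation from the 6-array mean (log2, vertical axis) for the 4 roles and the wider mitosis and replication lists, 1 numbered point an animal, with the group mean and SD over 3 animals. The mitosis points of the treated group run from -0.35 to 0.28, while those of the vehicle group lie between -0.03 and 0.03.

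The mitosis members also followed each other across the arrays. Over the 91 pairs of mitosis members the median correlation across the 6 arrays was 0.80, and 78 pairs were above 0. All 13 pairs below 0 involved Kif11, and over the 78 pairs without it the median was 0.82 and the lowest 0.28. The median was 0.37 among S phase members (45 pairs), 0.37 between S phase and mitosis members, 0.29 among G1 members and 0.01 over all pairs of genes with a symbol. With the group means taken off, the median was 0.85 for the mitosis pairs, 0.40 among S phase members, 0.57 between S phase and mitosis members and 0.39 among G1 members. The pairs share the same 6 arrays and are not independent.

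The co-variation rested on treated animals 1 and 2. Leaving out treated animal 1 gave a median correlation of 0.71 over the mitosis pairs and leaving out treated animal 2 gave 0.63. Without both, over 4 arrays, it was 0.0071, an alternative chosen after seeing the data. The median difference between the groups moved with the same arrays. It was -0.15 without treated animal 1, 0.20 without treated animal 2, -0.03 without treated animal 3, -0.06 without vehicle animal 1 and 0.02 without vehicle animal 3, so its sign was not settled.

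Correlations were computed for 5 named pairs of members. Cdk1 and Ccnb1 had r = 0.90 (exact two-sided permutation p = 0.0097, adjusted over the 5 pairs 0.0486) and a Spearman rho of 1.0 (exact permutation p = 0.0028, adjusted 0.0139). Without treated animals 1 and 2, the 2 farthest from the median of Cdk1, r fell to 0.52 over the 4 arrays left, while their rank order stayed the same (rho = 1.0). That order rests on near ties. Cdk1 was at 0.6909, 0.6947 and 0.7015 in vehicle animals 3 and 2 and treated animal 3. Ccnb1 was at -2.7309 and -2.7282 in vehicle animals 1 and 3. The other 4 pairs did not pass in exact permutation tests. They were Rrm2 and Tyms (r = 0.67, rho = 0.60, adjusted p = 0.287 for r), Mki67 and Cdkn1a (r = 0.63, rho = 0.71, adjusted p = 0.287), Mcm3 and Mcm6 (r = 0.55, rho = 0.43, adjusted p = 0.356) and Mki67 and Pcna (r = 0.26, rho = 0.26, adjusted p = 0.657).

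Most detected probes of the mitosis members placed treated animal 1 above treated animal 2. The 14 mitosis members had 27 detected probes, of which 25 were higher on treated animal 1 than on treated animal 2 and 23 were lowest on treated animal 2. Treated animal 1 was also above treated animal 2 on 21 of 26 S phase probes, 10 of 10 G1 probes and 4 of 10 CDK inhibitor probes. Of these, 13, 3 and 1 were lowest on treated animal 2. By gene, treated animal 1 was above treated animal 2 in 51.9% of all genes, so that order alone was not particular to mitosis. The 13 mitosis probes not used for the values had a median correlation of 0.88 with the used probe of their gene. Not all of them had treated animal 1 above the vehicle animals. The other Aurka probe was at -2.83, -2.77 and -2.82 in the vehicle animals and at -2.94 in treated animal 1 (r = 0.33 with the used probe). A dimmer Cenpf probe was at -4.72 in vehicle animal 1 and -5.13 in treated animal 1. That probe and another Cenpf probe were well above background on only 2 of 3 treated arrays, so they passed the filter through the vehicle group. Both are among the probes lowest on treated animal 2. For 22 members with more than 1 detected probe, the sign of the group difference was not the same over all probes in 7, of which 5 were S phase members. Rrm2 was among them: 3 of its 4 probes were lowest on treated animal 2 (r of 0.98 and 0.95 with the used probe), and the fourth was highest there at -3.32 (r = -0.55).

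**Figure D4:**
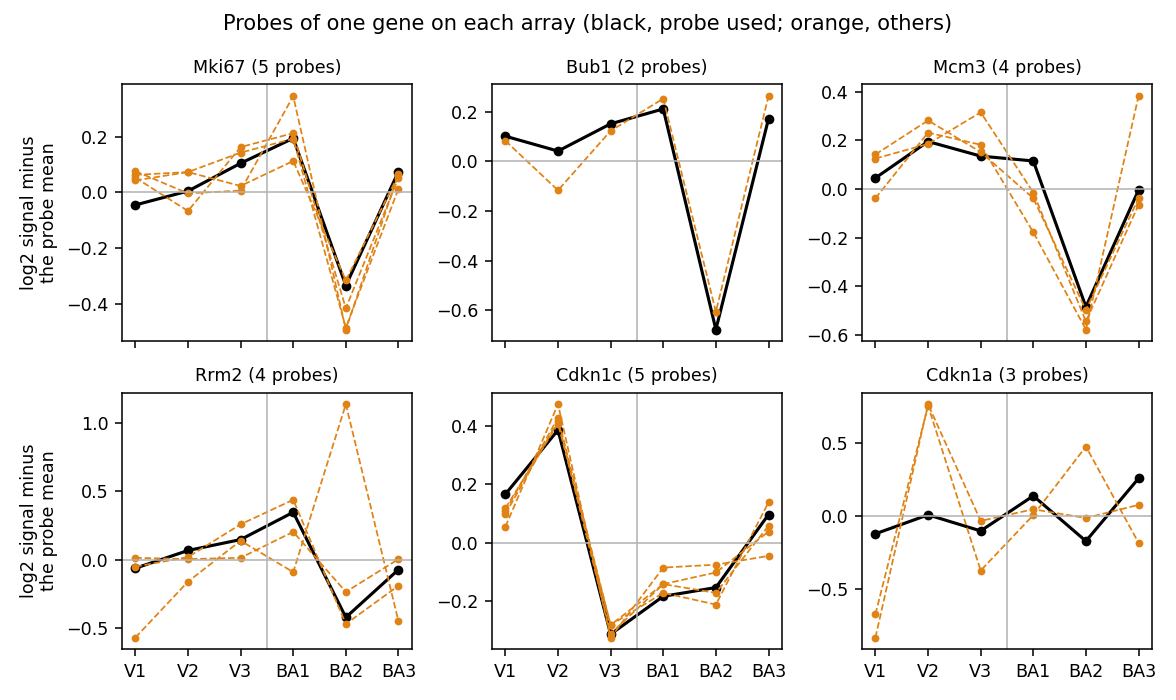
Signal of each detected probe minus its mean over the 6 arrays (log2, vertical axis, scaled separately for each gene) by array (V, vehicle; BA, benzyl acetate) for 6 members chosen after their values were seen, with the probe used in black and the others in orange. All 5 Mki67 probes are lowest on treated animal 2, while 1 of 4 Rrm2 probes is highest there.

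The pattern reached beyond the members. From a wider list of 36 other mitosis genes, 26 were tested, 21 of them highest on treated animal 1 and 16 lowest on treated animal 2. Of the 26, 15 (57.7%) had treated animal 1 above and treated animal 2 below all vehicle animals. Over all genes these 3 shares were 13.8%, 17.9% and 4.28%. From a wider list of 28 other replication genes, 24 were tested, and 3 of 24 (12.5%) had treated animal 1 above and treated animal 2 below all vehicle animals. Among S phase members 1 of 10 did so, Rrm2. More of these genes were lowest on treated animal 2 without treated animal 1 being above the vehicle animals, Mcm3 among them. In all, 4 of 10 S phase members and 12 of 24 wider replication genes were lowest on treated animal 2, against 17.9% of all genes. The S phase average was -0.06, 0.10 and 0.06 in the vehicle animals and 0.05, -0.16 and 0.01 in the treated.

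The promoters of the members were searched for letters of the elements through which S phase and mitosis genes are known to be switched on. Of these promoters, 8 are shown as examples with or without matches. They are the 250 bases before the start of 4 mitosis members with the order of animals described above (Cdk1, Mki67, Cdc20 and Bub1), of the 2 without it (Kif11 and Birc5), and of the helicase genes Mcm2 and Mcm6. The examples were picked after the values and matches were seen. Sequences are from RefSeq on GRCr8, written 5′ to 3′ on the strand of the gene. Capitals mark letters that match any of 3 motifs on either strand. The CHR, or cell cycle genes homology region, was searched as TTTGAA and, as a less usual form in such promoters, as TTCGAA, and in no other spelling. The box recognised by NF-Y was searched as CCAAT. The E2F motif was searched in 4 spellings (TTTGGCGC, TTTGCCGC, TTTCGCGC or TTTCCCGC).
Cdk1 (chr20:19265043-19265292, plus strand): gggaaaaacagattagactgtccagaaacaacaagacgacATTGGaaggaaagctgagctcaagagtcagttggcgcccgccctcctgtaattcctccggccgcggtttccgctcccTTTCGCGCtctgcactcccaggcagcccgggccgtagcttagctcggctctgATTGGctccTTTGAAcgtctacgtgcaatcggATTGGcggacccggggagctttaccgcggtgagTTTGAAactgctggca
Mki67 (chr1:199952594-199952843, minus strand): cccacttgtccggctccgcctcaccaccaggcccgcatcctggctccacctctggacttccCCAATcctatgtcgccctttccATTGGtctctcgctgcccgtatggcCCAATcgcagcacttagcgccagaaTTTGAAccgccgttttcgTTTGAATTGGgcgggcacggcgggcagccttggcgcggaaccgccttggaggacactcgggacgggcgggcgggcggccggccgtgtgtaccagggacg
Cdc20 (chr5:137255800-137256049, minus strand): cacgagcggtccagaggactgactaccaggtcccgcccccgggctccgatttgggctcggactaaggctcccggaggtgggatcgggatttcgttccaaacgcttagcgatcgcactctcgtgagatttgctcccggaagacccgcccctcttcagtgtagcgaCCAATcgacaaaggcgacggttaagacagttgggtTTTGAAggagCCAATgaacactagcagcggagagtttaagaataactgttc
Bub1 (chr3:135504922-135505171, minus strand): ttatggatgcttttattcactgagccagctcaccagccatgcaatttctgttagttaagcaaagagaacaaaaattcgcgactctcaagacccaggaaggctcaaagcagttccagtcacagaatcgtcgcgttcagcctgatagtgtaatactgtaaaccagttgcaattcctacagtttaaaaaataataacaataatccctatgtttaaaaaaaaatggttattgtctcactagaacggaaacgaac
Kif11 (chr1:244536617-244536866, plus strand): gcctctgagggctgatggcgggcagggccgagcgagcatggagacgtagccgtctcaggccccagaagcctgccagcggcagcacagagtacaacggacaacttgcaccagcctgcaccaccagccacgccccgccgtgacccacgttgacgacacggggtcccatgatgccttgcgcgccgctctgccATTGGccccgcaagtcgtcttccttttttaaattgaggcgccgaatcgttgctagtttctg
Birc5 (chr10:103571896-103572145, plus strand): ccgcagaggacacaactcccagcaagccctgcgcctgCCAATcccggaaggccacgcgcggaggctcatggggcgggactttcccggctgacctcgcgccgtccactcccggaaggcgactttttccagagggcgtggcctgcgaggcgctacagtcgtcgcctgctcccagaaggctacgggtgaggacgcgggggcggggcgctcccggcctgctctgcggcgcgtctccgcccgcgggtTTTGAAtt
Mcm2 (chr4:122918095-122918344, minus strand): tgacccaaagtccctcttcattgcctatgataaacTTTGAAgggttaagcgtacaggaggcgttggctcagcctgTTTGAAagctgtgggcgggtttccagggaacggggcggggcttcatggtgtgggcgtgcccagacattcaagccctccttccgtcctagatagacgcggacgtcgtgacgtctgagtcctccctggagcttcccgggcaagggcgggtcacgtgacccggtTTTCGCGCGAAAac
Mcm6 (chr13:42404353-42404602, minus strand): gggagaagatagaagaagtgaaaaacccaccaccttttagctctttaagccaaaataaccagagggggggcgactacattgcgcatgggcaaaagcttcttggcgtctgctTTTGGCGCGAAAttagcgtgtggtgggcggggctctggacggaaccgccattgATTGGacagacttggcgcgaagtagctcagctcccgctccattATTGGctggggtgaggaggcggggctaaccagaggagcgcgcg

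Each was searched in a window from 250 bases before to 50 after the start, on both strands, and 28 of 37 members had such a window. In Cdk1 a CHR match began at positions -72 and -16 and a CCAAT match at -210, -81 and -49, counted from the start. In Bub1 none of the 3 motifs was found, in Kif11 only a CCAAT match, at -61, and in Birc5 a CCAAT match at -213 and a CHR match at -8. Matches to different motifs shared bases in Mcm7 and Mki67 only. A match describes letters and is not a shown binding site. Other spellings were not searched, so a missing match does not show that a promoter lacks the element.

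In the spellings searched, CHR matches were found, and were missing, in mitosis members with and without that order of animals. Of the 10 mitosis members with a promoter window that had treated animal 1 above and treated animal 2 below all vehicle animals, 6 held a CHR match (Ccnb2, Cdc20, Cdk1, Cenpf, Mki67 and Plk1) and 4 did not (Aurka, Bub1, Ccnb1 and Kif20a). Aurka and Bub1 held none of the 3 motifs. Of the 2 mitosis members without that order, Birc5 held a CHR match and Kif11 did not.

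The shares that follow are over all members with a window, including the untested Top2a, Bub1b and Mcm5. A CHR match was present in 9 of 14 mitosis promoters (64.3%), in 3 of 8 S phase promoters (37.5%) and in 19.5% of all 27457 promoters. CHR and CCAAT together were present in 8 of 14 mitosis promoters (57.1%), in 59.4% of the wider mitosis list, in 2 of 8 S phase promoters (25.0%) and in 7.83% of all promoters. An E2F match was present in 6 of 8 S phase promoters (75%), in 43.5% of the wider replication list, in 1 of 14 mitosis promoters (7.14%), that of Cdk1, and in 2.25% of all promoters. Among tested members alone, a CHR match was present in 7 of 12 mitosis and 3 of 7 S phase promoters, and an E2F match in 1 of 12 and 5 of 7. None of the 4 promoters of G1 members or the 2 of CDK inhibitors held a CHR or an E2F match.

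**Figure D5:**
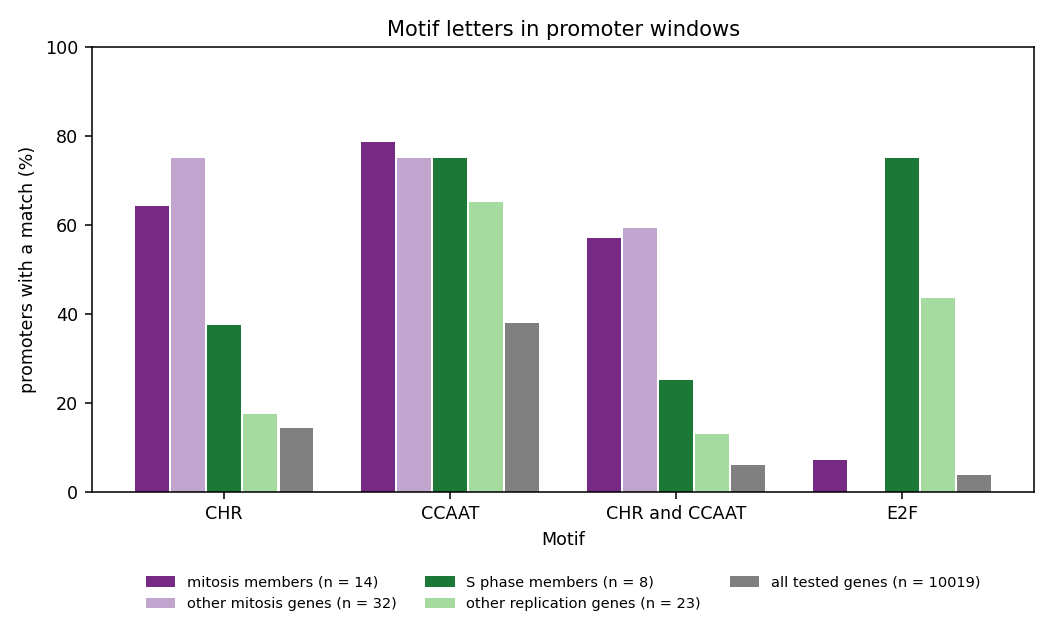
Share of promoters with a CHR match, a CCAAT match, both, or an E2F match (percent, vertical axis from 0) in the mitosis and S phase members, the wider mitosis and replication lists and the 10019 tested genes with a promoter. CHR with CCAAT is at 57.1% in mitosis members and 5.99% in tested genes, and E2F is at 75% in S phase members and 3.66% in tested genes.

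Of the G1 cyclins and kinases, which couple growth signals to the start of the cycle, 2 of 6 were higher and 4 lower in treated animals, with a median of -0.08 and none past the test. Ccnd1, cyclin D1, was at 3.10, 2.91 and 2.75 in the vehicle animals and at 3.45, 2.97 and 2.81 in the treated. Treated animal 1 was the highest and the other 2 lay inside the vehicle range, and the difference was 0.16 (interval -0.30 to 0.61). Ccnd2, cyclin D2, was at -0.34, -0.66 and -0.45 and at -0.59, -0.66 and -0.70, a difference of -0.17 (interval -0.42 to 0.08). Ccne1, cyclin E1, was at -3.26, -2.79 and -3.63 and at -3.28, -3.62 and -3.32, a difference of -0.18 (interval -0.73 to 0.37). Its 3 treated values lay inside the vehicle range.

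Cdk4, the kinase partner of the D cyclins, was at 2.16, 2.21 and 2.15 in the vehicle animals and at 2.27, 2.13 and 2.29 in the treated, a difference of 0.05 (interval -0.13 to 0.23). Ccnd3, cyclin D3, differed by -0.09 and Cdk2, the partner of cyclins E and A, by -0.07. Ccnd3 and Cdk4 had treated animal 1 above and treated animal 2 below the vehicle animals, as 2 of 6 members of this role. Treated animal 3 was lowest of all 6 for Ccnd3 and highest of all 6 for Cdk4. The other detected Cdk4 probe was at 2.02, 2.04 and 2.09 and at 2.00, 1.98 and 2.01, so every treated value was below every vehicle value. Its difference was -0.06 and its correlation with the used probe -0.24, so the order of animals for Cdk4 rests on 1 probe.

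Among the CDK inhibitors, Cdkn1a and Cdkn1b were higher and Cdkn1c lower in treated animals, with none past the test. Cdkn1a, the p53 target p21, was at 4.80, 4.93 and 4.82 in the vehicle animals and at 5.06, 4.75 and 5.18 in the treated. Treated animals 1 and 3 were above all vehicle animals and treated animal 2 below them. The difference was 0.14 (interval -0.16 to 0.45, limma adjusted p = 0.852). The other 2 Cdkn1a probes had differences of the same sign, 0.19 and 0.07, but did not follow the used probe across the arrays (r of -0.01 and 0.33), so the order of animals for Cdkn1a rests on 1 probe.

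Cdkn1b, the quiescence inhibitor p27, was at 0.86, 0.88 and 1.61 in the vehicle animals and at 1.29, 1.37 and 1.04 in the treated, a difference of 0.11 (interval -0.44 to 0.67). Vehicle animal 3 was the highest of the 6, and the treated values lay between it and the other vehicle animals. The other Cdkn1b probe was at 0.91, 1.03 and 1.05 and at 1.13, 1.23 and 1.31, with every treated value above every vehicle value and a difference of 0.23, and its correlation with the used probe was 0.28. Cdkn1c, p57, which podocytes express, was at 2.72, 2.94 and 2.24 and at 2.37, 2.40 and 2.65, a difference of -0.16 (interval -0.64 to 0.32). All 5 Cdkn1c probes had the same sign, with r from 0.91 to 0.99 against the used probe. The median of the 3 inhibitors, 0.11, changed sign with the arrays used, and was -0.013 without vehicle animal 1, -0.0039 without vehicle animal 2, 0.05 without treated animal 2 and 0.05 without treated animal 3.

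Of 15 p53 response genes 14 were tested and none passed, with 10 higher, 4 lower and a median of 0.04. Their lowest p-values belonged to Tp53inp1 (0.28), Gadd45a (0.13) and Btg2 (-0.17), given as log2 differences. None had treated animal 1 above and treated animal 2 below the vehicle animals, against 4.28% of all genes. At that share a list of 14 genes can hold none.

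The wider lists of the pathway also held no gene past the test. In the wider replication list, 8 of 24 tested genes were higher and 16 lower, with a median of -0.05. Prim1, the catalytic subunit of primase, was at 0.47, 0.83 and 0.46 in the vehicle animals and at -0.09, -0.37 and -0.01 in the treated, with all treated values below all vehicle values. Its difference was -0.74 (interval -1.10 to -0.39), with an adjusted p of 0.609 in limma. Pole, the catalytic subunit of DNA polymerase epsilon, also had groups apart, by -0.35 (interval -0.58 to -0.13, limma adjusted p = 0.667). Gins1, of the replicative helicase, differed by -0.22. These were the 3 lowest p-values of that list, and Prim1 and Pole were 2 of 24 at an unadjusted p under 0.05, against 6.74% of all genes. They were also the only 2 of 24 with groups apart, which is 8.33% against 12.8% of all genes (5.31% below).

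In the wider mitosis list, 12 of 26 tested genes were higher and 14 lower, with a median of -0.01. Cdca3 differed by 0.19, Tpx2 by -0.27 and Incenp by 1.11 with an interval from -1.0 to 3.23. Incenp, the scaffold of the chromosomal passenger complex, was at -1.15, -1.0 and 1.97 in the vehicle animals, so its vehicle values alone spanned more than its difference. In the wider G1 list, 15 of 19 were tested, 8 higher and 7 lower, with a median of 0.01. Ccne2 differed by 0.26, Rb1 by -0.09 and Cdk6 by -0.11.

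Several other measures differed between treated animals 1 and 2 or between arrays, and their part in the mitosis pattern was not tested. Outlier-flagged spots numbered 13, 16 and 3 in treated animals 1 to 3 and 1, 3 and 1 in the vehicle animals. The Gapdh control spots, 3′ minus 5′ on the log2 scale, were at 2.41, 2.45 and 2.39 in the vehicle animals and 2.37, 2.40 and 2.60 in the treated. The Pgk1 control spots were at 5.41, 5.56 and 5.44 and at 5.56, 5.51 and 5.61. Treated animal 3 was highest on both controls.

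Many, but not all, tested markers of immune cells, some of which divide, were lowest on treated animal 2, where 17.9% of all genes were lowest. Of 6 macrophage markers 5 were tested, 4 of them lowest on treated animal 2, with list averages from -0.06 to 0.23 in the vehicle animals and of 0.01, -0.29 and 0.08 in the treated. Of 11 T and NK cell markers 9 were tested, 6 lowest on treated animal 2, with averages from -0.23 to 1.28 in the vehicle animals and of -0.32, -0.51 and -0.34 in the treated. Of 5 B cell markers 3 were tested, 2 lowest on treated animal 2, with averages from -0.38 to 0.39 in the vehicle animals and of 0.24, -0.46 and 0.08 in the treated. The third, Pax5, was instead highest on treated animal 2, at 1.20. Cd3e, Cd5 and Cd163 were not well above background. No gene of these 3 lists had treated animal 1 above and treated animal 2 below all vehicle animals, against 4.28% of all genes. At that share, lists this short can hold none. The T and NK averages of all 3 treated animals were below those of all 3 vehicle animals, so that list was not low on treated animal 2 alone. The T and NK average of 1.28 was that of vehicle animal 3. Any part of these cells in the mitosis pattern was not tested. None of the 6 tested markers of injured or regenerating tubule did so either.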

How the data were processed

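Renal cortex RNA of 6 rats, 3 a group, was measured on 1-colour Agilent arrays. The deposited intensity values are the processed signals of the scanner files, as deposited by the authors; the submitters' processing notes name Agilent Feature Extraction 10.7. The deposited value table, used as an alternative, held the same signals on a linear scale, divided by a factor for each array (column medians 0.110 to 0.115). The array layout names an earlier genome build, so no gene coordinates were taken from it.

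From these, log2 of the signal minus the 75th percentile of the array was computed. Outlier-flagged spots were left out, a probe was kept if every array of either group had it well above background, and the detected probe of highest mean signal stood for a gene. Accessions were paired with symbols through RefSeq (GRCr8), which named 28206 of 61537 probes. Groups were compared with limma 3.58.1 in R 4.3.3 and Benjamini-Hochberg adjustment over 31179 genes, threshold 0.05. The script was tested on simulated data. Precision is limited by there being 6 arrays.

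The members and lists were chosen with earlier results of these data known. Values by array were given for the 2 members of largest difference in each role, any with an unadjusted p under 0.05, and 12 listed genes (Top2a had no probe); from wider and p53 lists the 3 genes of lowest p, and from marker lists the gene of highest signal, of which those of tubule and podocyte are printed. Normexp correction used the median spot signal. Alternatives covered scaling, background, filter, probe choice, slide, replicate block, prior, array weights and each array left out.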

Additional observations from a re-analysis of the deposited data

How the results depend on the processing

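Under the 20 alternatives run for the members, 0 of 660 member values passed the threshold, and the lowest adjusted p was 0.514, for Mcm7 with no filter on dim probes. The sign of the difference was the same under all of them for 12 members and turned under at least 1 for 21. Over all genes, limma called 2 with normexp background correction, and from 0 to 4 with 1 array left out (2 without treated animal 1 and 4 without treated animal 3), none of them a member. The median difference of the CDK inhibitors was -0.013 with the slide as a block and ran from -0.013 to 0.13 with 1 array left out. The same range was -0.15 to 0.20 for mitosis, -0.13 to -0.03 for S phase and -0.13 to -0.01 for the G1 members. The median correlation of mitosis pairs was 0.0071 with treated animals 1 and 2 both left out, an alternative chosen after seeing the data. Same-numbered arrays of the groups had deviations that correlated at -0.10, -0.0036 and 0.06, and differently numbered arrays at -0.09 to 0.12. No pairing by number was seen, but 3 arrays a group are too few to exclude one. With the replicate block 0 genes and 0 members were called. A planned pair, Mki67 with Top2a, was not computed. Members with signal near background have the widest relative error.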
